A study of Mus musculus with 10 samples.

Results

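The Wnt pathway genes described here were 61 of the 18725 genes in the expression table of a study of thyroid hormone in the mouse cochlea. They were taken by symbol: every gene named as a Wnt ligand, a Frizzled receptor, a secreted Frizzled-related protein, a Dickkopf or an R-spondin, and a fixed set of single genes for ligand processing, co-receptors, antagonists, feedback, scaffolds and the TCF and LEF factors. The rule reads symbols alone, but the members were chosen with earlier results of these data known. RNA came from the outer sulcus, an epithelial strip at the lateral edge of the cochlear duct that holds the root cells, dissected with the spiral ligament below it from C57BL/6J mice at postnatal day 10. In the hypothyroid group (5 libraries), the mothers drank water with sucrose at 5.0%, methimazole at 0.05% and sodium perchlorate monohydrate at 1.0%, given from embryonic day 17 and kept up while they nursed, up to postnatal day 10. In the euthyroid group (5 libraries), the mothers drank vehicle over the same time. Methimazole blocks thyroid hormone synthesis and perchlorate blocks the uptake of iodide into the thyroid, so the pups were treated through the mother and her milk. The labels do not say which pups or litters gave which library, so p-values measure only the spread between these libraries, which may in part be technical, and a litter effect and the treatment cannot be told apart.

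Wnt proteins are lipid-modified ligands that act over short distances. In the canonical branch, a ligand brings together a Frizzled receptor and the co-receptor Lrp5 or Lrp6, the Axin scaffold stops presenting beta-catenin for destruction, and beta-catenin enters the nucleus to act with TCF and LEF factors. In the noncanonical branches, ligands such as Wnt5a act through Frizzled and Ror receptors on cell polarity and movement. Secreted inhibitors trap the ligand (Sfrp proteins, Frzb, Wif1), strip its lipid (Notum) or block the co-receptor (Dkk1), and R-spondins with their LGR receptors keep Frizzled on the cell surface. In the cochlea, Wnt signalling is known for roles in the growth of the prosensory epithelium and in the alignment of hair cell bundles.

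The hypothyroid libraries held 19298145 to 19407592 estimated counts and the euthyroid libraries 19781921 to 20063961. One text in the labels, on RNA extraction, speaks of cartilage of the hip joint in older mice, whereas all other labels name the cochlea at postnatal day 10. The cochlear gene Otor averaged 6059.6 ± 797 CPM in hypothyroid and 5479 ± 258 CPM in euthyroid libraries, and Coch, Otos, Slc26a4, Epyc and Car3, the other 5 genes of the lateral wall list, were detected in both groups and fell in the hypothyroid libraries. In bulk tissue, fewer cells of a type and less RNA per cell cannot be told apart, and this holds for every difference below. Levels are in CPM, the share of a library's counts after scaling by TMM factors, and fold changes are log2 of hypothyroid over euthyroid from edgeR's quasi-likelihood test, with p-values adjusted by Benjamini-Hochberg over all 14862 genes tested.

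Of the 61 Wnt pathway genes, 51 had enough counts to be tested. At an adjusted p under 0.05 (edgeR), 18 of them rose and 22 fell with hypothyroidism, and 11 did not pass. The 40 that passed were 78.4% of the members tested, beside 71.8% of all genes tested. Over all genes, 37.7% were higher and 34.1% lower. At least 2-fold differences were found in 20 members (6 higher and 14 lower), 39.2% of those tested, beside 17.2% of all genes. The 5 hypothyroid and 5 euthyroid values did not overlap in 36 of the 51 members, beside 57.9% of all genes. The median log2 fold change was -0.11 over the members and 0.037 over all genes, and the median absolute log2 fold change was 0.85 over the members and 0.38 over all genes. Scaling libraries by their totals alone moved the median of all genes to 0.30 and that of the members to 0.15. With that scaling 54.8% of the members that passed were higher, against 45.0% as reported, and over all genes 74.7% against 52.5%. With limma on FPKM the share among the members was 56.1%. The direction of differences smaller than about 0.30 on the log2 scale can therefore rest on the scaling. Without euthyroid replicate 1 the members' median was -0.0379.

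**Figure D1:**
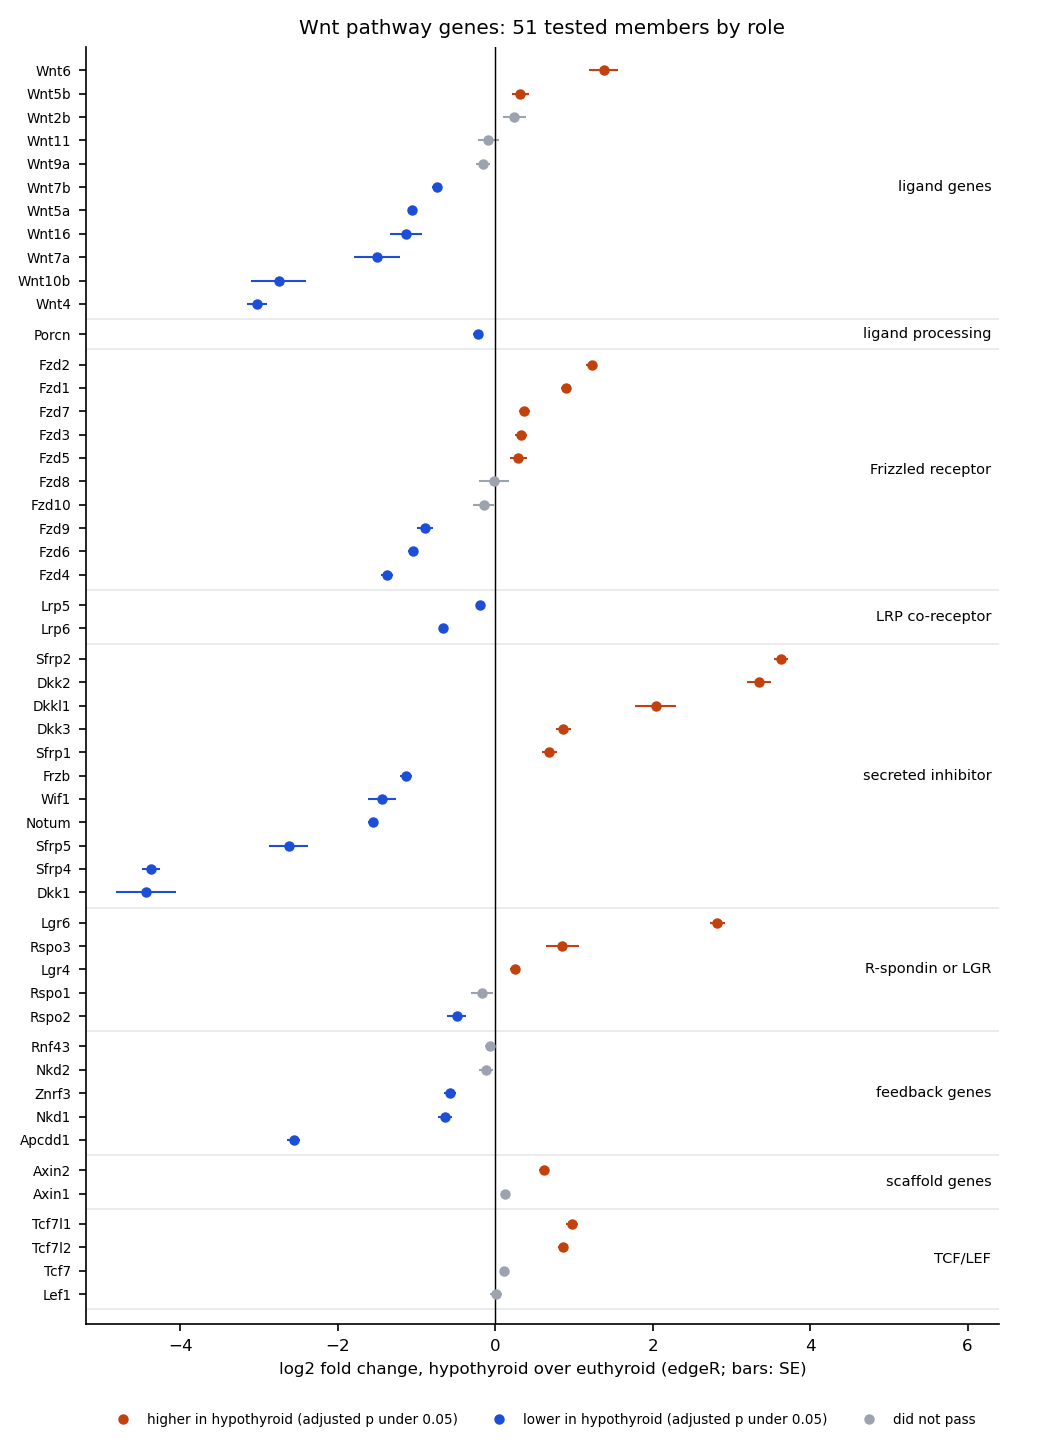
Log2 fold change (hypothyroid over euthyroid, edgeR) of the 51 Wnt pathway genes tested, grouped by role. Points are estimates and bars their SE, in orange for the 18 members that were higher, in blue for the 22 that were lower and in grey for the 11 that did not pass. The secreted inhibitors spread from -4.43 (Dkk1) to 3.63 (Sfrp2) with none in grey.

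The plot of fold changes by role shows that the larger roles held members of both directions. All 11 genes tested in the secreted inhibitor role passed, 5 higher and 6 lower, and in all 11 the groups did not overlap. The role was given by gene name, so it includes the divergent Dkk3 and the related gene Dkkl1, both higher. Whether these act as Wnt inhibitors here was not tested. Over all genes tested, 71.8% passed and the groups did not overlap in 57.9%. Of 11 ligands tested, 2 were higher, 6 lower and 3 did not pass. Among the 10 Frizzled receptors 5 were higher, 3 lower and 2 did not pass, and both LRP co-receptors were lower. The 5 R-spondin and LGR genes tested gave 3 higher, 1 lower and 1 that did not pass. None of the 5 feedback genes was higher and 3 were lower, while of the 2 Axin scaffolds and the 4 TCF and LEF factors 1 and 2 were higher and none was lower. Of those tested, 80.0% of the Frizzled receptors and 72.7% of the ligands passed. The share was 80.0% for R-spondin and LGR genes, 60.0% for feedback genes and 50.0% for TCF and LEF factors.

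The bases before 2 genes are shown here because these genes are among the 20 members with the largest changes in either direction, and their windows in the RefSeq table lay outside the RefSeq span of the gene and outside GENCODE exons: Fzd1, a Frizzled receptor that rose, and Sfrp5, a secreted inhibitor that fell. The first bases of the Sfrp5 window also occur in a transcript, so that window may be partly transcribed, whereas those of the Fzd1 window do not. Each line gives the 250 bases before the RefSeq transcript start on the strand of the gene (GRCm38.p6), 5′ to 3′. Capitals mark the hexamer CTTTGA or its reverse complement TCAAAG, the core that TCF and LEF factors bind, and AGGTCA or its reverse complement TGACCT would be marked too, the hexamer that nuclear receptors, thyroid hormone receptors included, bind. The Fzd1 sequence lies at chr5:4758217-4758466 and the Sfrp5 sequence at chr19:42202253-42202502, both on the minus strand.
Fzd1: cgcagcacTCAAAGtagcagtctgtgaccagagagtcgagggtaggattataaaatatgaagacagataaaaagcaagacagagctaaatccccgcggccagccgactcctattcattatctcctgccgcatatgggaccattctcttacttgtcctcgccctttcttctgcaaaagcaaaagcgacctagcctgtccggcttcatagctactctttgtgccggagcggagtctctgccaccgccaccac
Sfrp5: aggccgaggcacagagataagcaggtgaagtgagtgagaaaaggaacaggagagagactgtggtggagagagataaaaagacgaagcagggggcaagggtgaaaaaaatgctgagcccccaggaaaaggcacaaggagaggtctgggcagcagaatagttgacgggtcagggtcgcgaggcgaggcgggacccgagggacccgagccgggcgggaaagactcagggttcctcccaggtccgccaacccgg
The Fzd1 window held CTTTGA on the reverse strand, at -242 from the start, and the Sfrp5 window held neither hexamer. Of the 61 members, 40 had an entry in the RefSeq table, with 49 windows in all, since some genes have several. A window lies before the start of 1 transcript: 27 of the 49 overlapped the RefSeq span of their own gene, 20 overlapped an exon of the GENCODE annotation, and 7 did neither. CTTTGA on either strand was in 6 of the 49 windows (12.2%: Dkk1, Frzb, Fzd1, Lef1, Wnt11 and Wnt5b), beside 13.8% of 32851 windows of the same length, and AGGTCA was in 3 (6.12%: Dkkl1, Tcf7 and Wnt16), beside 14.0%. A match describes the letters only.

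Wnt5a, the noncanonical ligand, was the most abundant ligand gene in both groups per length, and it fell. It had 357, 366, 364, 358 and 379.6 CPM in the hypothyroid libraries, against 786, 782, 815, 721 and 709 CPM in the euthyroid libraries. The groups did not overlap and the mean was 2.09-fold lower in hypothyroid libraries (log2 fold change -1.06 with an SE of 0.05, edgeR adjusted p = 4.74e-11). Wnt4, a ligand of epithelial and reproductive tract development, had 3.74, 3.52, 2.31, 3.65 and 3.96 CPM in the hypothyroid libraries, against 33.2, 29.8, 24.4, 26.0 and 26.7 CPM in the euthyroid libraries. It fell 8.13-fold (log2 fold change -3.02 with an SE of 0.13, edgeR adjusted p = 2.14e-11), the largest fall among the ligands, and hypothyroid replicate 3 lay below the other 4. Wnt10b, a canonical ligand known for promoting bone formation, had 0.0935, 0.0951, 0.434, 0.185 and 0.188 CPM in the hypothyroid libraries, against 1.30, 0.916, 1.52, 1.24 and 1.88 CPM in the euthyroid libraries. These were 21 counts over all hypothyroid libraries and 124 over all euthyroid ones (log2 fold change -2.75 with an SE of 0.35, edgeR adjusted p = 4.48e-06), with the highest hypothyroid library below the lowest euthyroid one. Wnt7a, a ligand of epithelia and neurons, had 1.64, 0.903, 1.11, 1.11 and 0.848 CPM in the hypothyroid libraries, against 5.02, 2.64, 1.86, 4.34 and 2.11 CPM in the euthyroid libraries. The euthyroid libraries spread widely, and the lowest of them lay just above the highest hypothyroid one (log2 fold change -1.51 with an SE of 0.29, edgeR adjusted p = 0.000332). Wnt16 and Wnt7b also fell without overlap, by 1.13 and 0.74 on the log2 scale (edgeR adjusted p = 0.000128 and 7.36e-08).

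Wnt6, expressed in many embryonic epithelia, was the ligand with the largest rise. It had 2.71, 2.42, 2.80, 2.40 and 2.31 CPM in the hypothyroid libraries, against 0.918, 1.19, 0.621, 1.01 and 1.11 CPM in the euthyroid libraries, so its level was low throughout and the groups did not overlap (log2 fold change 1.38 with an SE of 0.18, edgeR adjusted p = 6.44e-06). Wnt5b, the close relative of Wnt5a, had a log2 fold change of 0.32 (edgeR adjusted p = 0.0164) with overlapping groups, and without euthyroid replicate 2 and without euthyroid replicate 4 its adjusted p was 0.0540 and 0.0544. The 3 other ligands tested did not pass: Wnt2b (0.24, interval -0.043 to 0.52), Wnt11 (-0.089, interval -0.35 to 0.17) and Wnt9a (-0.16, interval -0.34 to 0.023), where intervals are approximate 95% intervals of the log2 fold change. The other 8 ligands were not tested. Wnt1, Wnt3a and Wnt8a had 0 counts in all hypothyroid libraries and 4, 8 and 1 counts over the euthyroid ones. Wnt10a had 1 and 0 counts over the hypothyroid and euthyroid libraries, Wnt9b 1 and 1, Wnt3 8 and 8, Wnt8b 1 and 18, and Wnt2 17 and 40.

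Porcn, the acyltransferase that adds the lipid to Wnt proteins, had 16.0, 15.8, 13.9, 15.5 and 14.2 CPM in the hypothyroid libraries, against 17.9, 16.9, 18.2, 17.3 and 17.7 CPM in the euthyroid libraries. It was slightly lower in the hypothyroid libraries (log2 fold change -0.22 with an SE of 0.07, edgeR adjusted p = 0.00739), a direction that turned when libraries were scaled by their totals alone or when FPKM or TPM were used. Wls, the carrier that takes Wnt proteins to the cell surface and not one of the 61 genes, fell by 0.75 on the log2 scale (315 ± 12.9 CPM in hypothyroid and 529.6 ± 15.2 CPM in euthyroid libraries; edgeR adjusted p = 6.58e-10). Summed over all 19 ligand genes, the deposited TPM, which adjusts for gene length, was 265 TPM ± 10.2 in hypothyroid and 421 TPM ± 23.0 in euthyroid libraries (SD, n = 5 each), and the sums of the groups did not overlap. Wnt5a made up 67.8% ± 0.476 in hypothyroid and 76.2% ± 1.27 in euthyroid libraries.

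**Figure D2:**
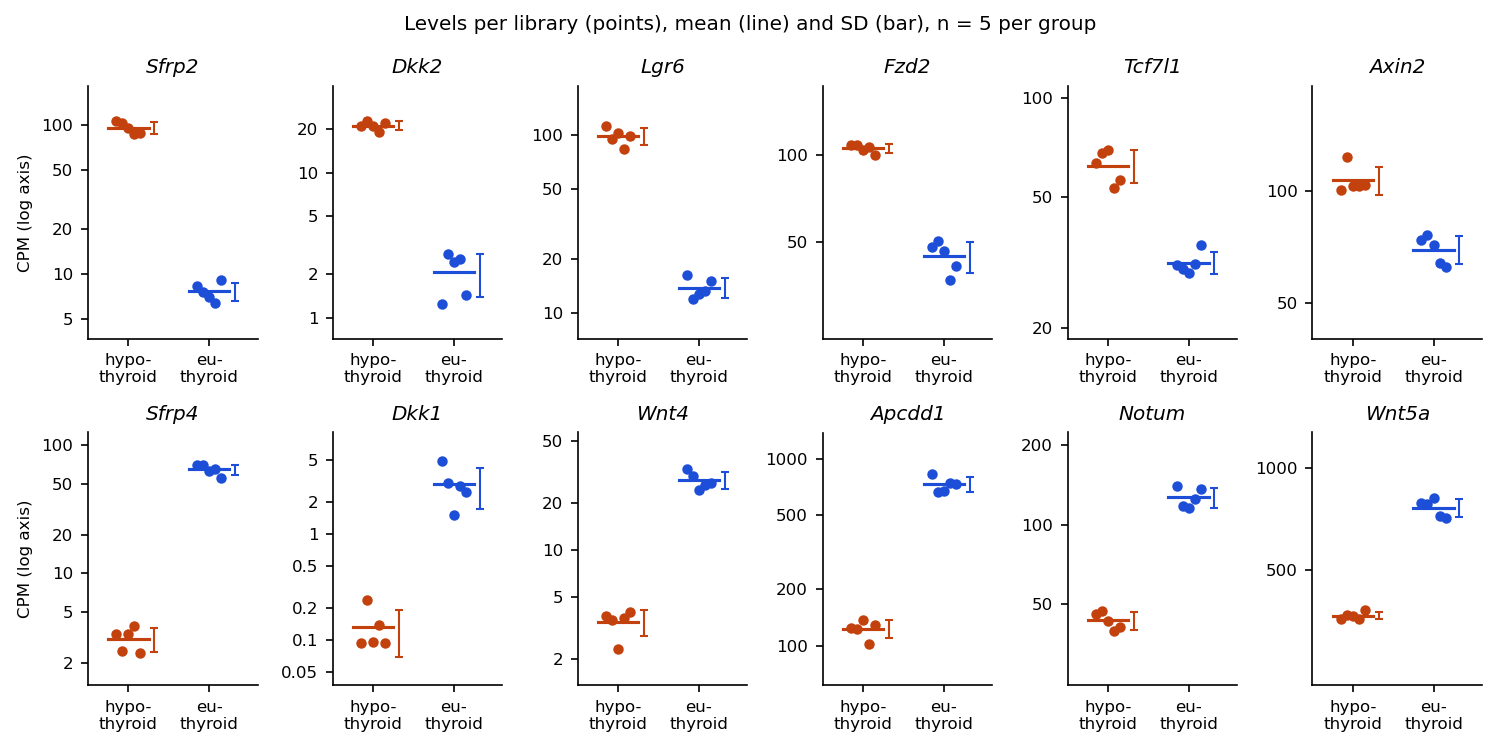
Levels of 12 members in CPM on log axes, each point 1 library, with the mean as a line and the SD as a bar (n = 5 per group, hypothyroid in orange on the left, euthyroid in blue on the right). Upper row: members that rose, Sfrp2, Dkk2, Lgr6, Fzd2, Tcf7l1 and Axin2; lower row: members that fell, Sfrp4, Dkk1, Wnt4, Apcdd1, Notum and Wnt5a. In none of the 12 do the groups overlap.

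Among the receptors, Fzd9 was the most abundant Frizzled per length in both groups, and it fell. It had 163, 154, 188, 170.1 and 164 CPM in the hypothyroid libraries, against 268, 244, 354, 349 and 342 CPM in the euthyroid libraries (log2 fold change -0.89 with an SE of 0.10, edgeR adjusted p = 7.56e-06). The groups did not overlap, and euthyroid replicates 1 and 2 were lower than the other 3. Fzd4, which also binds the non-Wnt ligand norrin in the retina and the inner ear vasculature, had 10.7, 11.8, 13.7, 12.3 and 10.9 CPM in the hypothyroid libraries, against 31.8, 30.2, 29.3, 33.6 and 29.0 CPM in the euthyroid libraries. It was 2.59-fold lower in hypothyroid libraries, with a narrow spread in both groups (log2 fold change -1.37 with an SE of 0.08, edgeR adjusted p = 4.20e-10). Fzd6, a Frizzled of planar polarity, averaged 78.2 ± 5.07 CPM in hypothyroid and 162 ± 7.66 CPM in euthyroid libraries (log2 fold change -1.05, edgeR adjusted p = 1.06e-10).

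The other direction was led by Fzd2, which had 108, 107, 104, 106 and 99.8 CPM in the hypothyroid libraries, against 48.4, 50.7, 46.8, 37.1 and 41.4 CPM in the euthyroid libraries. Its hypothyroid level was 2.34-fold higher and the groups lay far apart (log2 fold change 1.23 with an SE of 0.07, edgeR adjusted p = 7.52e-10). Fzd1, its close relative, had 147, 147, 135, 123 and 141 CPM in the hypothyroid libraries, against 81.7, 81.5, 65.9, 69.2 and 72.8 CPM in the euthyroid libraries (log2 fold change 0.90 with an SE of 0.07, edgeR adjusted p = 1.55e-08), again without overlap. Fzd7, of the same subfamily, and Fzd3, a planar polarity Frizzled, rose by less, with log2 fold changes of 0.37 and 0.33 (edgeR adjusted p = 0.000349 and 0.000942). Fzd1, Fzd2 and Fzd7, which form 1 subfamily by sequence, thus all rose. Fzd5 had a log2 fold change of 0.29 (edgeR adjusted p = 0.0254) with overlapping groups, and its adjusted p was between 0.0562 and 0.0834 without euthyroid replicate 3, euthyroid replicate 4 or hypothyroid replicate 4. Fzd8 (-0.017, interval -0.38 to 0.35) and Fzd10 (-0.14, interval -0.41 to 0.12) did not pass.

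Lrp5 and Lrp6, the co-receptors of the canonical branch, were both lower. Lrp5 had 131, 138, 133, 132 and 135 CPM in the hypothyroid libraries, against 158, 139, 155, 159 and 154 CPM in the euthyroid libraries. The lowest euthyroid library, replicate 2, lay just above the highest hypothyroid one (log2 fold change -0.19 with an SE of 0.04, edgeR adjusted p = 0.000969), and the direction turned to 0.072 with library totals alone, without passing. Lrp6 averaged 183 ± 13.9 CPM in hypothyroid and 288 ± 21.3 CPM in euthyroid libraries (log2 fold change -0.66 with an SE of 0.06, edgeR adjusted p = 1.49e-07), and its direction was the same under all alternatives. The 10 Frizzled genes together had 573 TPM ± 9.39 in hypothyroid and 619.6 TPM ± 21.9 in euthyroid libraries (SD, n = 5 each). These sums did not overlap, with 564 to 585 TPM in hypothyroid and 588 to 641 TPM in euthyroid libraries. The makeup differed: Fzd9 made up 37.4% ± 2.34 in hypothyroid and 54.6% ± 6.14 in euthyroid libraries, Fzd1 14.7% ± 1.14 in hypothyroid and 6.27% ± 0.956 in euthyroid libraries, and Fzd2 13.5% ± 0.644 in hypothyroid and 4.58% ± 0.778 in euthyroid libraries.

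The secreted inhibitors held the largest differences of the set in both directions. Within the secreted Frizzled-related family, whose proteins carry a Frizzled-like domain that binds Wnt, Sfrp2 and Sfrp4 moved in opposite directions. Sfrp2 had 105, 102, 95.2, 86.9 and 87.4 CPM in the hypothyroid libraries, against 8.37, 7.60, 6.997, 6.42 and 9.09 CPM in the euthyroid libraries. It was 12.4-fold higher (log2 fold change 3.63 with an SE of 0.09, edgeR adjusted p = 1.32e-13), the largest rise of the 51 members, and the gene lies at chr3:83765750-83774314 (RefSeq, GRCm38.p6). Sfrp4, a gene also known for its expression in bone, had 3.37, 2.47, 3.38, 3.88 and 2.40 CPM in the hypothyroid libraries, against 69.8, 69.3, 62.6, 64.7 and 55.2 CPM in the euthyroid libraries. It was 20.7-fold lower (log2 fold change -4.37 with an SE of 0.11, edgeR adjusted p = 2.22e-13), and the gene lies at chr13:19623175-19632825. Sfrp5 followed Sfrp4 at a far lower level, with 0.281, 0.618, 0.386, 0.277 and 0.377 CPM in the hypothyroid libraries, against 2.05, 2.80, 2.09, 3.10 and 2.05 CPM in the euthyroid libraries (log2 fold change -2.62 with an SE of 0.24, edgeR adjusted p = 1.47e-07). Its groups did not overlap.

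Sfrp1, the most abundant member of the family and the most abundant secreted inhibitor by mean TPM, had 415, 439, 494, 344 and 443 CPM in the hypothyroid libraries, against 292, 276, 235, 231 and 292 CPM in the euthyroid libraries. It rose 1.61-fold, with no overlap and a wide spread among the hypothyroid libraries (log2 fold change 0.69 with an SE of 0.10, edgeR adjusted p = 2.67e-05). Frzb, an inhibitor abundant in cartilage, fell and averaged 79.5 ± 4.99 CPM in hypothyroid and 174 ± 19.1 CPM in euthyroid libraries (log2 fold change -1.13 with an SE of 0.07, edgeR adjusted p = 2.75e-09). The 5 genes of the family summed to 466 TPM ± 36.9 in hypothyroid and 372 TPM ± 37.6 in euthyroid libraries (SD, n = 5 each), with 1 hypothyroid library among the euthyroid values. Sfrp2 made up 27.6% ± 2.27 in hypothyroid and 2.37% ± 0.283 in euthyroid libraries. Sfrp4 made up 1.04% ± 0.287 in hypothyroid and 22.9% ± 2.07 in euthyroid libraries, and Frzb 15.7% ± 0.647 in hypothyroid and 36.8% ± 1.92 in euthyroid libraries. The stacked bars of family totals show that Sfrp1 and Sfrp2 made up most of the sum in hypothyroid libraries, and Sfrp1, Frzb and Sfrp4 most of it in euthyroid libraries.

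**Figure D3:**
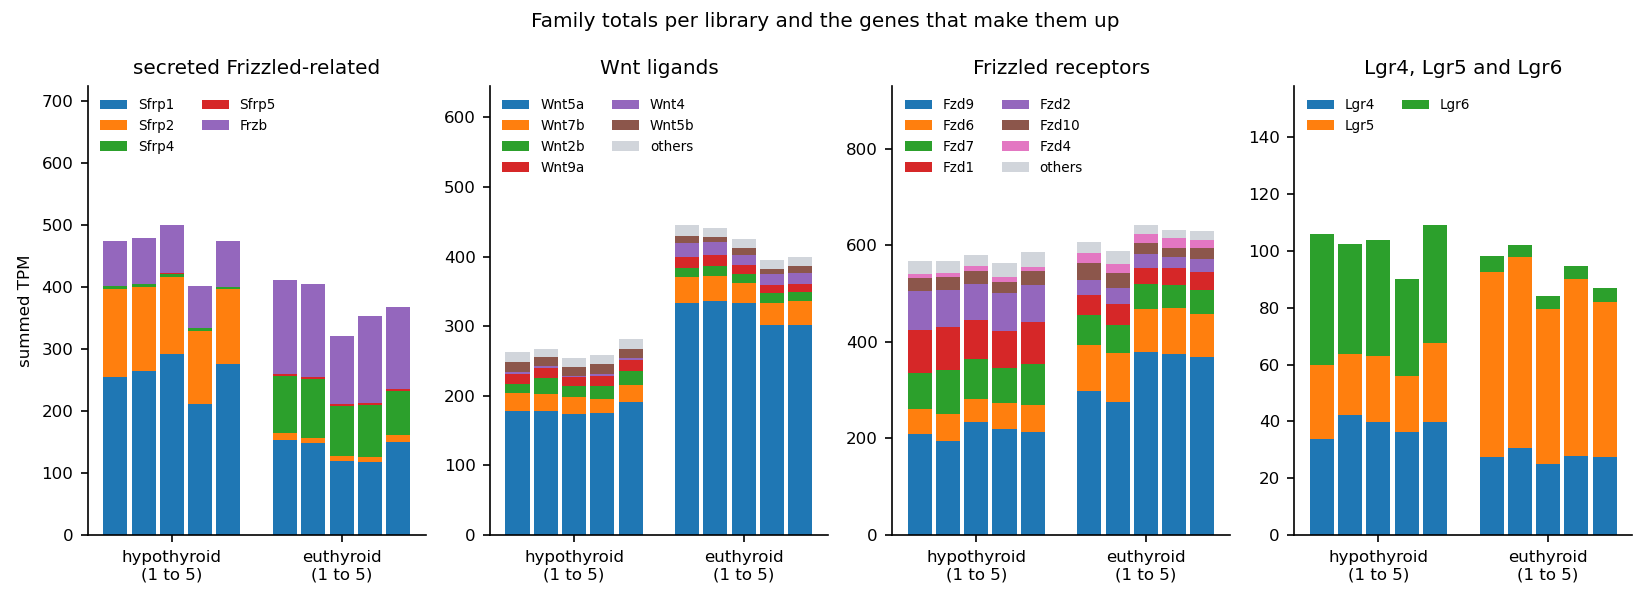
Summed deposited TPM per library for 4 gene families, with hypothyroid libraries 1 to 5 on the left and euthyroid libraries 1 to 5 on the right of each panel, and colours for the genes. Sfrp2 takes 27.6% of the secreted Frizzled-related sum in hypothyroid and 2.37% in euthyroid libraries, and Lgr6 takes 39.2% of the LGR sum in hypothyroid and 5.22% in euthyroid libraries.

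In the Dickkopf family, whose founding members bind Lrp5 and Lrp6, Dkk1 and Dkk2 differed in opposite directions. Dkk2 had 21.0, 23.0, 21.0, 19.1 and 22.2 CPM in the hypothyroid libraries, against 1.24, 2.75, 2.43, 2.54 and 1.44 CPM in the euthyroid libraries. It was 10.2-fold higher (log2 fold change 3.35 with an SE of 0.16, edgeR adjusted p = 8.72e-11), and all hypothyroid libraries lay far above all euthyroid ones. Dkk1, a strong inhibitor of the canonical branch and of bone formation, had 0.0935, 0.238, 0.0964, 0.138 and 0.0942 CPM in the hypothyroid libraries, against 4.92, 3.07, 1.52, 2.87 and 2.49 CPM in the euthyroid libraries. These were 14 counts over the hypothyroid and 271 over the euthyroid libraries (log2 fold change -4.43 with an SE of 0.38, edgeR adjusted p = 6.72e-08), so the size of the fall rests on few counts. Of the summed TPM of Dkk1, Dkk2 and Dkk4, Dkk2 made up 98.9% ± 0.478 in hypothyroid and 31.5% ± 13.4 in euthyroid libraries.

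Dkk3, a divergent member that does not share the Lrp binding of the founding ones, was the most abundant Dickkopf and had 122, 144, 138, 169 and 119 CPM in the hypothyroid libraries, against 70.5, 78.8, 69.0, 82.0 and 79.4 CPM in the euthyroid libraries (log2 fold change 0.87 with an SE of 0.09, edgeR adjusted p = 1.23e-06). Dkkl1, a related gene known from the testis, had 1.03, 1.95, 1.49, 1.29 and 1.13 CPM in the hypothyroid libraries, against 0.270, 0.431, 0.282, 0.338 and 0.333 CPM in the euthyroid libraries, a rise at a low level (log2 fold change 2.04 with an SE of 0.26, edgeR adjusted p = 5.07e-06). Both rose without overlap. Dkk4 was not tested, with 1 count over the hypothyroid and 1 over the euthyroid libraries.

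Wif1 and Notum, which act on the ligand itself, both fell. Wif1, the Wnt inhibitory factor, had 29.3, 16.9, 23.9, 19.8 and 27.1 CPM in the hypothyroid libraries, against 71.4, 63.8, 43.3, 64.3 and 74.8 CPM in the euthyroid libraries. The groups did not overlap, with euthyroid replicate 3 the lowest of its group (log2 fold change -1.44 with an SE of 0.18, edgeR adjusted p = 4.64e-05). Notum, the secreted hydrolase that removes the lipid from Wnt proteins and is itself a target of the canonical branch in several tissues, had 46.0, 47.2, 43.0, 39.4 and 40.9 CPM in the hypothyroid libraries, against 140.0, 118, 116, 125 and 136 CPM in the euthyroid libraries. It was 2.93-fold lower (log2 fold change -1.55 with an SE of 0.07, edgeR adjusted p = 2.39e-11).

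Several inhibitors are also genes of bone, and bone genes fell in the same libraries. The inhibitors did not all fall: of the 11 tested in that role, 6 were lower and 5 higher. Those higher were Sfrp2, Dkk2, Dkkl1, Dkk3 and Sfrp1, with log2 fold changes of 3.63, 3.35, 2.04, 0.87 and 0.69. Of 10 osteoblast and osteocyte markers, none was higher, 9 were lower and 1 (Spp1) did not pass, with a summed level of 395 to 949 CPM in hypothyroid and 1423 to 2055 CPM in euthyroid libraries. Spp1 made up most of the hypothyroid sum, with 479 ± 231 CPM in hypothyroid and 288 ± 54.9 CPM in euthyroid libraries. The sums therefore understate the fall of the other 9. The osteocalcin gene Bglap2 was at 0 in the hypothyroid libraries. Of 6 chondrocyte markers, 1 (Matn1) was higher, 4 were lower and 1 (Sox9) did not pass. Their summed levels were 13475 to 14421 CPM in hypothyroid and 33078 to 38281 CPM in euthyroid libraries, with no marker at 0. Col2a1 made up most of both sums, with 12485 ± 392 CPM in hypothyroid and 32367 ± 2003 CPM in euthyroid libraries. The part of these cells in the falls of Dkk1, Sfrp4, Frzb, Wif1 and Wnt10b was not tested. Sost, the osteocyte inhibitor of Lrp5 and Lrp6 and 1 of those 10 markers, had 12 counts over the hypothyroid and 1559 over the euthyroid libraries (log2 fold change -7.17 with an SE of 0.35, edgeR adjusted p = 7.23e-10).

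The R-spondin receptors Lgr6 and Lgr5 differed in opposite directions. Lgr6 had 112, 95.3, 102, 83.4 and 99.1 CPM in the hypothyroid libraries, against 16.3, 12.1, 12.8, 13.3 and 15.1 CPM in the euthyroid libraries. It was 7.07-fold higher with no overlap (log2 fold change 2.82 with an SE of 0.09, edgeR adjusted p = 3.49e-12), the third largest rise of the set. Its relative Lgr5, a stem cell receptor outside the 61 genes, went the other way, with 45.5, 38.9, 42.4, 34.8 and 48.5 CPM in the hypothyroid libraries, against 132, 135, 116, 131 and 114 CPM in the euthyroid libraries (log2 fold change -1.58 with an SE of 0.08, edgeR adjusted p = 5.98e-10). Lgr5 is also 1 of 7 root cell and outer sulcus markers, of which none was higher, 6 were lower and 1 did not pass. Their summed levels were 3223 to 3905 CPM in hypothyroid and 8014 to 8755 CPM in euthyroid libraries, and their part was not tested. Epyc (1735 ± 235 CPM in hypothyroid, 3978 ± 220 CPM in euthyroid) and Sparcl1 (1408 ± 80.9 and 3512 ± 91.0 CPM) made up most of the sums. Of these markers 85.7% passed, beside 71.8% of all genes (34.1% lower). Lgr4, the third receptor, was higher by 0.25 on the log2 scale with overlapping groups (edgeR adjusted p = 0.00265). Summed over the 3 receptors, TPM was 102 TPM ± 7.13 in hypothyroid and 93.3 TPM ± 7.56 in euthyroid libraries (SD, n = 5 each), and the ranges of the groups overlapped. Lgr6 made up 39.2% ± 2.48 in hypothyroid and 5.22% ± 0.712 in euthyroid libraries, and Lgr5 23.2% ± 1.86 in hypothyroid and 65.1% ± 1.39 in euthyroid libraries.

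Among the ligands of these receptors, Rspo3 was the most abundant per length and had 38.6, 39.1, 39.6, 68.6 and 33.1 CPM in the hypothyroid libraries, against 17.8, 27.6, 26.0, 25.1 and 24.8 CPM in the euthyroid libraries. It rose (log2 fold change 0.85 with an SE of 0.21, edgeR adjusted p = 0.00398), and hypothyroid replicate 4 stood well above the other 4, without which the log2 fold change was 0.63. Rspo2 was lower with overlapping groups (log2 fold change -0.49, edgeR adjusted p = 0.00241) and did not pass with library totals alone (-0.22). Rspo1 did not pass (-0.17, interval -0.44 to 0.11), and Rspo4, with 2 counts in each group, was not tested.

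Of the feedback genes, Apcdd1, a membrane inhibitor of Wnt signalling, had the highest TPM of all 61 members in the euthyroid libraries and was 6th in the hypothyroid ones. It had 125, 123, 138, 103 and 129 CPM in the hypothyroid libraries, against 829, 667, 670.3, 741 and 733 CPM in the euthyroid libraries. That is 5.90-fold lower with a wide gap between the groups (log2 fold change -2.56 with an SE of 0.08, edgeR adjusted p = 1.82e-12). Nkd1, which binds Dishevelled, and Znrf3, a ubiquitin ligase that removes Frizzled from the surface, fell by 0.64 and 0.58 on the log2 scale without overlap (edgeR adjusted p = 1.70e-05 and 4.29e-06). Their relatives Nkd2 (-0.11, interval -0.29 to 0.064) and Rnf43 (-0.061, interval -0.21 to 0.085) did not pass.

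Axin2, a scaffold of the destruction complex whose transcription follows canonical signalling in most tissues, rose. It had 101, 123, 103, 103 and 104 CPM in the hypothyroid libraries, against 73.8, 76.3, 71.5, 64.1 and 62.3 CPM in the euthyroid libraries. The groups did not overlap, and the rise was 1.54-fold (log2 fold change 0.62 with an SE of 0.07, edgeR adjusted p = 1.02e-06), with hypothyroid replicate 2 above the other 4. Axin1, the widely expressed form of the scaffold, had 68.8, 80.7, 81.1, 69.6 and 73.5 CPM in the hypothyroid libraries, against 69.0, 63.6, 67.4, 67.2 and 74.8 CPM in the euthyroid libraries. It did not pass (log2 fold change 0.13 with an SE of 0.06, edgeR adjusted p = 0.0669, interval 0.011 to 0.24), but was higher with an adjusted p of 1.19e-05 with library totals alone.

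The TCF and LEF factors, the nuclear end of the branch, either rose or did not pass. Tcf7l1, which often acts as a repressor, had 63.5, 68.2, 69.5, 53.3 and 56.5 CPM in the hypothyroid libraries, against 31.0, 30.3, 29.5, 31.3 and 35.9 CPM in the euthyroid libraries (log2 fold change 0.98 with an SE of 0.08, edgeR adjusted p = 3.08e-08). Tcf7l2, the form known best from the gut and the liver, had 40.5, 42.4, 42.9, 37.8 and 40.4 CPM in the hypothyroid libraries, against 20.5, 23.6, 21.8, 22.8 and 23.7 CPM in the euthyroid libraries (log2 fold change 0.86 with an SE of 0.06, edgeR adjusted p = 3.89e-09). For both the groups lay apart, with folds of 1.97 and 1.81. Tcf7, the most abundant of the 4 by mean TPM, had 73.3, 67.1, 73.5, 71.8 and 67.5 CPM in the hypothyroid libraries, against 66.6, 63.8, 65.2, 60.8 and 70.7 CPM in the euthyroid libraries. Its groups overlapped and it did not pass (log2 fold change 0.11 with an SE of 0.05, edgeR adjusted p = 0.06, interval 0.012 to 0.21), while its adjusted p was 1.16e-05 with library totals alone. Lef1 averaged 52.3 ± 6.403 CPM in hypothyroid and 52.1 ± 2.18 CPM in euthyroid libraries (log2 fold change 0.0064, interval -0.14 to 0.15, edgeR adjusted p = 0.942). Genes of dividing cells were higher as well: all 5 markers passed, with summed levels of 55.2 to 90.1 CPM in hypothyroid and 17.3 to 26.0 CPM in euthyroid libraries. All 6 macrophage markers were also higher (summed 320.3 to 434 CPM in hypothyroid and 198 to 221 CPM in euthyroid libraries), as were all 6 melanocyte markers (864 to 1655 CPM in hypothyroid and 398 to 606 CPM in euthyroid libraries). Of 5 epithelial markers, 4 were higher and 1 did not pass (705 to 826 CPM in hypothyroid and 618 to 676 CPM in euthyroid libraries). Of 5 endothelial markers, 4 were lower and 1 did not pass (319 to 378 CPM in hypothyroid and 384 to 511 CPM in euthyroid libraries). The marker lists differed in direction. Of the markers tested, 80.0% of the epithelial and endothelial, 83.3% of the hair cell and 60.0% of the glial ones passed. The share over all genes tested was 71.8%, with 37.7% higher and 34.1% lower. Of 7 hair cell markers, 1 was higher, 4 were lower, 1 did not pass and 1 was not tested (32.1 to 41.8 CPM in hypothyroid and 41.7 to 95.4 CPM in euthyroid libraries), with Slc26a5 at 0 in the hypothyroid libraries. Most of the hypothyroid sum was Myo7a, the 1 that was higher (30.8 ± 3.01 CPM in hypothyroid and 12.5 ± 1.38 CPM in euthyroid libraries). Ocm, 1 of the 4 that were lower, averaged 0.0378 ± 0.0395 CPM in hypothyroid and 30.0 ± 13.3 CPM in euthyroid libraries. Of 5 glial markers, 1 was higher, 2 were lower and 2 did not pass (258 to 326 CPM in hypothyroid and 305 to 401 CPM in euthyroid libraries), and of 5 neuronal markers, 1 was higher, 1 lower and 3 were not tested (42.2 to 56.4 CPM in hypothyroid and 22.9 to 33.0 CPM in euthyroid libraries). Most of the hypothyroid neuronal sum was Syt1, the higher marker (48.7 ± 5.24 CPM in hypothyroid and 14.8 ± 2.44 CPM in euthyroid libraries). Tubb3, the lower marker, averaged 0.698 ± 0.969 CPM in hypothyroid and 12.2 ± 2.19 CPM in euthyroid libraries. Apart from Slc26a5, no marker of these 8 lists was at 0 in all libraries of a group, and the part of any of these cells in the rises of the Wnt genes was not tested.

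**Figure D4:**
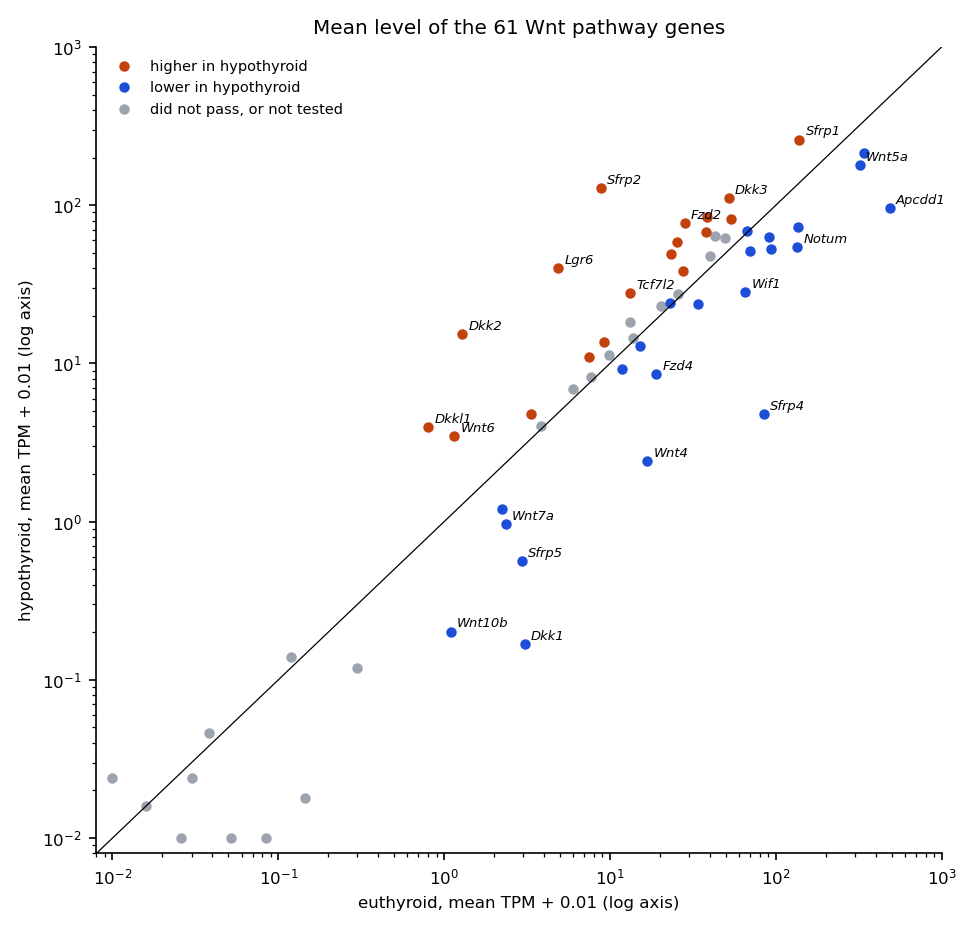
Mean deposited TPM of the 61 Wnt pathway genes in hypothyroid (vertical) and euthyroid (horizontal) libraries, on log axes with the small offset named on them, and the line of equal level. Sfrp2 lies furthest above the line among the abundant genes (128 TPM in hypothyroid, 8.81 TPM in euthyroid), and Sfrp4 and Apcdd1 lie well below it. Colours follow the edgeR calls, whereas TPM is not scaled by TMM factors. Lrp5 (68.8 TPM in hypothyroid, 67.3 TPM in euthyroid) and Porcn (24.2 and 23.1 TPM), called lower, therefore lie slightly above the line.

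Ordered by TPM, the scale on which genes can be compared, the hypothyroid libraries had Sfrp1, Fzd9, Wnt5a and Sfrp2 at the top and the euthyroid libraries Apcdd1, Fzd9, Wnt5a and Sfrp1, as the plot of mean levels shows. Sfrp1 averaged 259.7 ± 30.7 TPM in hypothyroid and 138 ± 17.5 TPM in euthyroid libraries. Fzd9 averaged 214 ± 14.6 TPM in hypothyroid and 339 ± 49.1 TPM in euthyroid libraries. Sfrp2 ranked 4th among the 61 in hypothyroid and 37th in euthyroid libraries, with 128 ± 10.4 TPM in hypothyroid and 8.81 ± 1.28 TPM in euthyroid libraries. Not all neighbours in these orders lay apart: Fzd9 and Wnt5a, with 339 ± 49.1 and 321 ± 17.6 TPM in euthyroid libraries, did not differ beyond their SD.

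Beyond the 61, 75 further genes of the pathway in 4 lists gave 36 higher, 21 lower and 15 that did not pass among 72 tested, and 47 higher and 14 lower with library totals alone. The 57 called are 79.2% of those tested, beside 71.8% of all genes (37.7% higher and 34.1% lower), and over all genes library totals alone gave 8650 higher and 2928 lower. The extracellular modulators mostly rose (11 of 14 higher, 2 lower, 1 not passed). Gpc3, a glypican that binds Wnt at the cell surface, averaged 64.5 ± 2.93 CPM in hypothyroid and 7.89 ± 1.44 CPM in euthyroid libraries (log2 fold change 3.03 with an SE of 0.09, edgeR adjusted p = 9.12e-13), and Draxin, a secreted protein that binds Lrp6, averaged 36.0 ± 2.84 CPM in hypothyroid and 10.5 ± 0.610 CPM in euthyroid libraries (log2 fold change 1.78, edgeR adjusted p = 1.31e-11). The 2 that fell were Sost, above, and Kremen1, a receptor for Dkk1, which averaged 88.9 ± 6.29 CPM in hypothyroid and 410.4 ± 24.6 CPM in euthyroid libraries (log2 fold change -2.21 with an SE of 0.06, edgeR adjusted p = 2.06e-13).

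In the core machinery, 13 of 29 genes were higher, 11 lower and 5 did not pass, and Lgr5 was the only 1 of the 24 that passed to differ at least 2-fold. Those 24 were 82.8% of the genes tested in this list, beside 71.8% of all genes. Ctnnb1, which encodes beta-catenin, averaged 1505 ± 36.5 CPM in hypothyroid and 1514 ± 49.8 CPM in euthyroid libraries (log2 fold change -0.0085, edgeR adjusted p = 0.872). Its fold change was 0.26 with library totals alone, so its direction rests on the scaling. Bcl9 and Pygo1, adaptors of nuclear beta-catenin, rose by 0.86 and 0.58 on the log2 scale (edgeR adjusted p = 2.95e-08 and 3.71e-07).

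Of 18 noncanonical and planar polarity genes, 7 were higher, 5 lower and 6 did not pass, so 66.7% passed, beside 71.8% of all genes. Ptk7 and Ror1, co-receptors of these branches, rose with log2 fold changes of 0.90 and 0.82 (edgeR adjusted p = 2.37e-09 and 1.60e-08). Daam2, a formin that binds Dishevelled, averaged 58.0 ± 4.22 CPM in hypothyroid and 321 ± 33.3 CPM in euthyroid libraries (log2 fold change -2.47, edgeR adjusted p = 6.18e-13), and Vangl1, a core planar polarity protein, fell by 0.78 (edgeR adjusted p = 9.78e-10). Of 14 response genes, 11 were tested and 5 were higher, 3 lower and 3 did not pass, so 72.7% of those tested passed, beside 71.8% of all genes. Ccnd1, which encodes cyclin D1, rose by 1.51, Zcchc12 by 1.66 and Sp5, a direct target in many tissues, by 1.26 (edgeR adjusted p = 3.74e-09, 2.39e-05 and 0.000435), whereas Tnfrsf19 and Cd44 fell by 1.64 and 1.44 (edgeR adjusted p = 2.66e-11 and 5.82e-10).

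**Figure D5:**
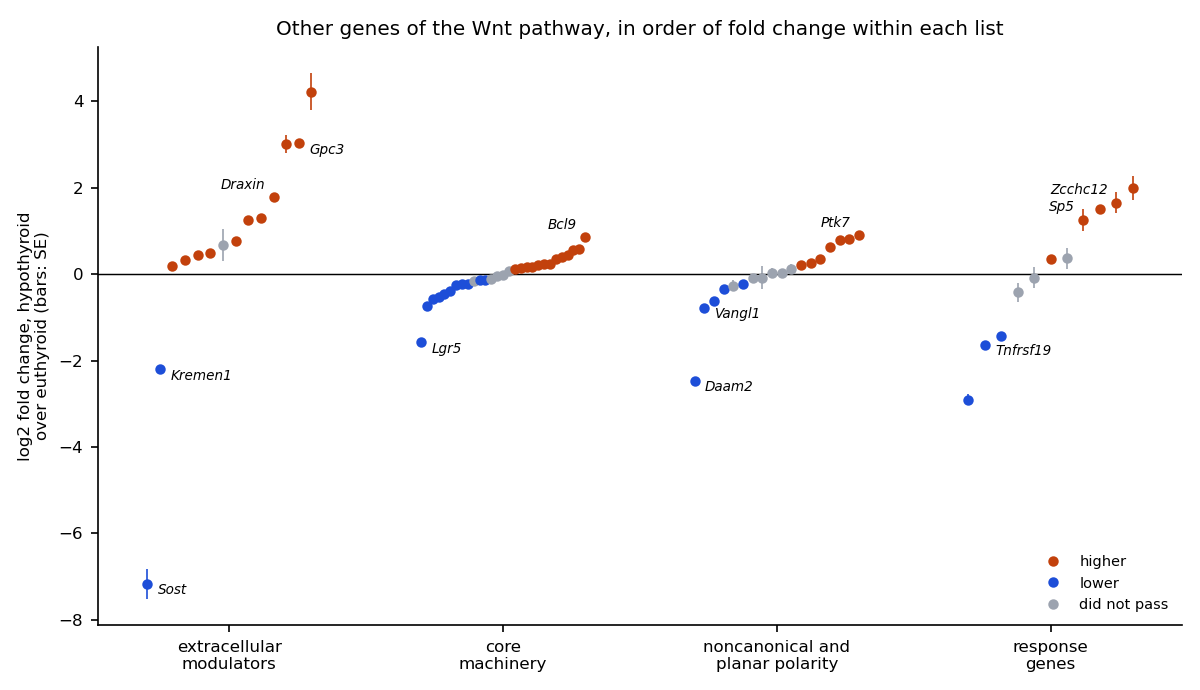
Log2 fold change (hypothyroid over euthyroid, edgeR, bars SE) of the 72 further pathway genes tested, in order within 4 lists, orange for higher, blue for lower and grey for not passed. The extracellular modulators run from -7.17 (Sost) to above the labelled Gpc3 at 3.03, while the core machinery apart from Lgr5 (-1.58) runs from -0.75 (Wls) to 0.86 (Bcl9).

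The antagonists and the response genes each held large differences in both directions. Genes outside the naming rule, picked after their values were seen, were Ccn4 (log2 fold change -2.91), Sostdc1 (3.02), Cer1 (4.23) and Myc (2.002), with edgeR adjusted p = 2.14e-09, 9.66e-09, 3.19e-07 and 3.92e-05. In 11 of the 61 members (Axin2, Fzd5, Fzd6, Lef1, Notum, Rspo3, Sfrp2, Tcf7l1, Wnt11, Wnt5a and Wnt7b), an annotated gene on the opposite strand overlaps an exon, and reads of the partner cannot be told apart from the member's because no source states whether strand was kept.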

How the data were processed

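Per the labels' protocols, oligo(dT)-selected RNA was read as single ends of 50 bases. The tools named in the submitters' processing notes were RSEM 1.2.12, HISAT2 2.0.4 and Bowtie2 2.2.5, with the build GRCm38.p6 and without their role or order. The authors deposited expected counts per gene, which RSEM estimates and which need not be whole, as well as TPM and FPKM, both scaled for the length of each gene and the size of the library. The authors also deposited a scaled signal per library and group means, which were not used. Whether strand was kept is not given in the sources used here.

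Expected counts were rounded and tested with edgeR 4.0.16 (R 4.3.3): filterByExpr with a minimum count of 10 kept 14862 of 18725 genes, with TMM factors, a robust quasi-likelihood fit with group as the only term and 2-sided Benjamini-Hochberg adjusted p under 0.05. SE is the absolute log2 fold change over the square root of F, and intervals are approximate 95% intervals from it. The mean chi-square per gene between libraries of 1 group was 5.21 to 15.1, so none was a duplicate. On data simulated from these means, 98 of 100 genes changed 2-fold and 89 of 100 changed 1.5-fold were recovered, with 3 of 14572 unchanged genes called (14772 genes). The simulation gave every gene the same fixed dispersion and changed few genes, as many up as down. In the real data 71.8% of genes passed. The simulation therefore checks the running of the test and cannot show how scaling or real spread affects the calls.

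The members and lists were chosen with earlier results of these data known. Values in every library are given for the 10 members with the largest rise and the 10 with the largest fall that passed with a mean of at least 1 CPM in the higher group, and for the member with the highest mean TPM of each role. Axin2 and Lgr5 were added. Of the further pathway genes, the 2 with the smallest adjusted p each way per list are named, with Lgr5, Sost, Ctnnb1 and Sp5. Alternatives were other scalings and filters, DESeq2 1.42.0, limma 3.58.1 on log2(FPKM + 1), log2(TPM + 1) and log2(TPM + 0.1), a replicate block, and leaving out each library. Sequences are from RefSeq tables. Figures were drawn with matplotlib 3.10.9.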

Additional observations from a re-analysis of the deposited data

Results flagged for a closer look

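In 138 groups of 5 libraries (69 named genes or members in 2 groups each), a library was flagged where its gap to the nearest other library, over the range of the group, was above Dixon's 95% value of 0.71, which chance gives in about 1 in 20 groups. This held in 10 groups. For Axin2, hypothyroid replicate 2 (123 CPM) lay above the next library (104 CPM) by 0.850 of the range. Rspo3 was flagged in both groups: hypothyroid replicate 4 (68.6 CPM) lay above the next (39.6 CPM) by 0.817 of the range, and euthyroid replicate 1 (17.8 CPM) below the next (24.8 CPM) by 0.714. Hypothyroid replicate 3 was flagged in 3 ligands: it was the lowest for Wnt4 (2.31 CPM, next 3.52 CPM, 0.733) and Wnt9a (16.1 CPM, next 17.9 CPM, 0.721), and the highest for Wnt10b (0.434 CPM, next 0.188 CPM, 0.721). The lowest euthyroid library of Lrp5, replicate 2 (139 CPM, next 154.5 CPM), gave 0.757. Outside the 61 genes, Cd44 gave 0.764 (euthyroid replicate 3, lowest), Tnfrsf19 0.735 (euthyroid replicate 2, lowest) and Wls 0.767 (euthyroid replicate 4, highest).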

How the results depend on the processing

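Each of 20 alternatives was run for the 51 members tested, and 41 kept their side of the threshold in all of those that could give a value. Of the 40 that had passed, 35 kept both their side and their direction. With library sizes alone, 8650 genes were higher and 2928 lower, and 2827, 3241 and 3238 were lower with limma on FPKM, on TPM and on TPM with a pseudocount of 0.1. The members' median log2 fold change was 0.15 with library sizes alone, -0.00308 with upper quartile factors, and 0.16, 0.10 and 0.11 with limma on FPKM, on TPM and on TPM with a pseudocount of 0.1. Leaving out 1 library at a time gave medians from -0.16 to -0.0379, the last without euthyroid replicate 1. The median of all genes was 0.302 with library sizes alone, 0.147 with upper quartile factors and 0.244, 0.229 and 0.252 with limma on FPKM, on TPM and on TPM with a pseudocount of 0.1.

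The sign of 10 members changed in at least 1 alternative, and 2 of these, Lrp5 and Porcn, had passed. Rnf43, and Ctnnb1 outside the 61, did not pass as reported but passed with the other sign. Lrp5 was at 0.072 with library sizes alone, and at 0.070, 0.033 and 0.033 with limma on FPKM, TPM and TPM with a pseudocount of 0.1. Porcn was at 0.044, 0.095, 0.062 and 0.065 in those 4 settings. Ctnnb1 was at 0.26, 0.26, 0.22 and 0.22 in the same 4 and at 0.10 with upper quartile factors. Rnf43 was at 0.20 with library sizes alone and 0.21 with FPKM. Rspo2 did not pass with library sizes alone, FPKM or TPM, Lrp5 and Porcn did not pass with upper quartile factors, and Lef1, Tcf7, Axin1 and Wnt2b passed as higher in some scalings. On the log2(value + 1) scale the changes of low genes were smaller, as with Dkk1 (-1.04 with FPKM).

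The replicate block gave 18 members higher and 22 lower and changed no call among the members. Same-numbered libraries deviated together by correlations of -0.0893 to 0.162, and the labels do not tie a number to a litter or day, so the numbers were not taken as pairs. Dkk1 (14 counts over the hypothyroid libraries) and Wnt10b (21) were limited by depth.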

Other observations

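Further genes of the 4 fixed pathway lists, chosen here after their values were seen, are given as values. The 3 glypicans listed, proteoglycans that bind Wnt at the cell surface, all rose. Beside Gpc3, Gpc4 averaged 75.4 ± 11.7 CPM in hypothyroid and 31.5 ± 2.23 CPM in euthyroid libraries (log2 fold change 1.26, edgeR adjusted p = 2.53e-08) and Gpc6 78.4 ± 5.78 CPM in hypothyroid and 45.7 ± 3.46 CPM in euthyroid libraries (log2 fold change 0.78, edgeR adjusted p = 3.21e-08). Lypd6, a membrane protein that binds Lrp6, averaged 116 ± 7.69 CPM in hypothyroid and 47.0 ± 4.61 CPM in euthyroid libraries (log2 fold change 1.30, edgeR adjusted p = 2.02e-10). Of the 3 Dishevelled genes, which carry the signal of Frizzled in both branches, Dvl2 and Dvl3 rose (log2 fold changes 0.56 and 0.24, edgeR adjusted p = 3.18e-05 and 0.000468) and Dvl1 did not pass (0.065, edgeR adjusted p = 0.3).

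Among planar polarity genes, the Celsr and Vangl genes differed within their families, whereas Prickle1, Prickle2 and Prickle3 all rose. Celsr1 rose and averaged 28.6 ± 2.10 CPM in hypothyroid and 18.6 ± 3.001 CPM in euthyroid libraries (log2 fold change 0.62, edgeR adjusted p = 2.79e-05), whereas Celsr2 fell and averaged 80.1 ± 3.30 CPM in hypothyroid and 102 ± 6.03 CPM in euthyroid libraries (log2 fold change -0.34, edgeR adjusted p = 1.49e-05). Vangl1 fell, as given above, and its paralogue Vangl2 did not pass (0.036, interval -0.075 to 0.15, edgeR adjusted p = 0.584). Ryk, a Wnt receptor of the noncanonical branches, averaged 96.4 ± 3.65 CPM in hypothyroid and 147 ± 4.18 CPM in euthyroid libraries (log2 fold change -0.61, edgeR adjusted p = 3.65e-09). Prickle1 averaged 37.8 ± 2.36 CPM in hypothyroid and 22.0 ± 1.36 CPM in euthyroid libraries (log2 fold change 0.78, edgeR adjusted p = 2.49e-08). Prickle2 and Prickle3 rose by 0.34 and 0.20 (edgeR adjusted p = 0.000105 and 0.0443), with overlapping groups for Prickle3.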
